A study of Ovis aries with 40 samples.

Results

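ACTN3, MYH1, CASQ1 and TMOD4 are genes of skeletal muscle, grouped here as fast-fibre genes. They were followed by 5 array probes, A_70_P037371 for ACTN3, A_70_P050846 and A_70_P018506 for MYH1, A_70_P009386 for CASQ1 and A_70_P038871 for TMOD4. These were 5 of the 15008 probes on the array, and 0 further probes carried any of the 4 symbols in the array's own gene names. The 5 probes were chosen by earlier results of the same arrays, namely their difference between 2 sheep breeds at 70 and 85 d of gestation and their increase over gestation, so those values are given as a description without a test.

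The study measured RNA of the longissimus dorsi, the long muscle of the back, in purebred Texel sheep, a heavily muscled breed, and Ujumqin sheep, a less muscled and fatter indigenous Chinese breed. Fetuses were collected by caesarean section from ewes inseminated with semen of their own breed, and lambs were Ujumqin only. RNA of each animal was labelled with Cy3 and hybridized to its own 1-colour Agilent sheep array, giving 40 arrays on 5 slides. The comparison of breeds asks when in gestation their muscle programmes differ, and the lambs extend the Ujumqin series past birth.

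The Texel groups were T70 (n = 3, 1 male and 2 females), T85 (n = 3, 2 males and 1 female), T100 (n = 4, 1 male and 3 females), T120 (n = 3, all male) and T135 (n = 3, 2 males and 1 female), named by day of gestation. The fetal Ujumqin groups were U70, U85 and U100 (each n = 3, 2 males and 1 female) and U120 and U135 (each n = 3, all female). Ujumqin lambs were taken at birth (n = 3, 1 male and 2 females), at 1 month (n = 3, 1 male and 2 females) and at 2 months (n = 3, all female). At 120 d breed and sex cannot be told apart, since the Texel fetuses were all male and the Ujumqin fetuses all female. By the methods, 3 ewes were used for each group of fetuses, while T100 has 4 animals, so a shared dam is possible there, and the 4 were treated as independent. The number of arrays limits the precision of every value.

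Slide 1 held T70, 2 arrays of T85 and the birth group. Slide 2 held the other T85 array, U70, U85 and 1 array of T100. Slide 3 held 3 arrays of T100, the 1 month group and 1 array each of T120 and U100. Slide 4 held 2 arrays each of U100 and T120, U120 and 1 array of T135. Slide 5 held 2 arrays of T135, U135 and the 2 month group. T70 and U70 shared no slide, and no slide held successive stages from 135 d to 2 months.

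The median processed signal of an array lay between 217.6 and 708.3, from 217.6 to 359.1 on the 9 postnatal arrays and from 233.6 to 708.3 on the 31 fetal arrays. Feature Extraction marked 0 spots as saturated. Signals were brought to the same distribution on all 40 arrays by the quantile method, and a level is the base-2 logarithm of that normalized signal. Each member probe had 1 spot, and all 5 probes were well above background on 40 of 40 arrays, so the filter on dim probes, which kept 14480 of 15008, removed no member. The label of the tissue was checked against muscle genes. ACTA1, CKM and DES are not among the named probes, while MYOG, TNNC2, MYLPF and TPM1, all genes of muscle, were well above background on 40 of 40 arrays. In the bulk tissue, fewer cells of a type and less RNA per cell cannot be told apart.

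Skeletal muscle fibres differ in speed through the isoforms of the proteins that build the sarcomere and that release and take up calcium. Fast fibres hold fast myosin heavy chains as the motor of the thick filament, alpha-actinin 3 in the Z-line that anchors the thin filaments, and large stores of calcium bound to calsequestrin 1 in the sarcoplasmic reticulum. In fetal muscle, embryonic and neonatal isoforms come first, and adult fast isoforms take over around birth as fibres mature.

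The probe sequences are shown because every value below rests on how well each one reads its own transcript, and because both MYH1 probes are needed to judge a gene whose family members are alike in sequence.
A_70_P037371 (ACTN3): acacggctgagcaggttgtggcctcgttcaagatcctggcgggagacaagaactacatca
A_70_P050846 (MYH1): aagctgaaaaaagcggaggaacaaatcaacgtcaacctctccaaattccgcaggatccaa
A_70_P018506 (MYH1): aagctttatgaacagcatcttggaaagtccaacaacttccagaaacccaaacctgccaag
A_70_P009386 (CASQ1): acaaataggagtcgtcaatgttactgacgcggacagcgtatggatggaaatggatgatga
A_70_P038871 (TMOD4): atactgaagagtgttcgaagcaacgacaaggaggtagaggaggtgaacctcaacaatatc

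Each of these probes has 60 bases. The gene names of the 5 probes come from the study's own search for homologous sequences, since the array's design names them only by an expressed sequence tag. The longest run of bases that A_70_P018506 shares with another probe of the array is 15, and the other 4 probes share no run of 15 or more. Whether the MYH1 probes also bind transcripts of other myosin heavy chain genes was not tested. With 2 probes for MYH1, each is reported by itself.

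ACTN3 encodes alpha-actinin 3, the Z-line actin crosslinker of fast fibres. ACTN3 at 70 d read 10.93, 10.70 and 10.04 in the Texel fetuses and 9.75, 9.34 and 9.03 in the Ujumqin fetuses. Its level at 85 d was 13.65, 13.26 and 13.96 in Texel and 10.98, 10.19 and 10.85 in Ujumqin. All Texel fetuses lay above all Ujumqin fetuses at both ages, and the gap was wider at 85 d. By 100 d the same probe read 14.96, 15.48, 14.93 and 15.28 in the 4 Texel fetuses and 13.44, 14.78 and 14.16 in Ujumqin, where the arrays still did not overlap. ACTN3 then read 16.84, 16.86 and 16.04 in Texel and 16.51, 16.54 and 16.75 in Ujumqin fetuses of 120 d. The breeds overlapped there. Fetuses of 135 d had ACTN3 levels of 16.83, 16.71 and 16.13 in Texel and 17.05, 16.95 and 17.02 in Ujumqin, and at this age every Ujumqin fetus was above every Texel fetus. In Ujumqin lambs the ACTN3 level was 18.06, 17.95 and 17.69 at birth, 17.87, 17.68 and 17.55 at 1 month and 17.55, 17.13 and 17.62 at 2 months. All 9 lambs were above all 31 fetuses for this probe.

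From the lowest to the highest mean, the 13 groups of ACTN3 ran U70, T70, U85, T85, U100, T100, T135, T120, U120, U135, 2 months, 1 month and birth. Of the 12 pairs of neighbours in that order, 6 overlapped in their arrays, and these were T70 with U85, T85 with U100, T135 with T120, T120 with U120, 2 months with 1 month and 1 month with birth. Between 70 and 135 d the mean ACTN3 level differed by 5.999 (SE 0.29) in Texel and by 7.63 (SE 0.29) in Ujumqin on the log2 scale. In Texel, 51.1% of that difference lay between 70 and 85 d, 25.6% between 85 and 100 d and 23.6% between 100 and 120 d. The Ujumqin shares over the same steps were 17.0%, 45.3% and 32.4%. The steepest step of ACTN3 was therefore the earliest one in Texel, at 2.05 log2 units per 10 d, and the step from 85 to 100 d in Ujumqin, at 2.30 log2 units per 10 d.

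MYH1 encodes the fast type 2X myosin heavy chain, a motor protein of the thick filament. Read by A_70_P050846, MYH1 at 70 d was 10.82, 9.59 and 11.94 in Texel and 9.81, 10.04 and 9.73 in Ujumqin. At 85 d this probe read 13.14, 14.04 and 12.68 in Texel and 10.54, 10.67 and 11.25 in Ujumqin. The breeds overlapped at 70 d, where 1 Texel fetus read below all Ujumqin fetuses, and did not overlap at 85 d. A_70_P050846 gave 14.33, 15.89, 14.37 and 15.73 in Texel and 14.58, 14.40 and 14.34 in Ujumqin at 100 d. The T100 fetuses fell into a lower pair near the Ujumqin level and a higher pair above it. At 120 d the values were 17.47, 17.63 and 17.16 in Texel and 17.38, 16.95 and 17.19 in Ujumqin, and at 135 d they were 17.99, 17.59 and 17.47 in Texel and 17.52, 17.62 and 17.53 in Ujumqin. The breeds overlapped at both ages. In lambs the probe read 17.86, 17.50 and 17.83 at birth, 17.81, 17.75 and 17.95 at 1 month and 17.76, 17.60 and 17.58 at 2 months, levels that the fetuses of 135 d had already reached.

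The second MYH1 probe, A_70_P018506, read 6.17, 5.12 and 7.66 in Texel and 5.60, 5.31 and 5.34 in Ujumqin fetuses of 70 d. At 85 d A_70_P018506 gave 8.73, 9.14 and 8.001 in Texel and 6.17, 6.52 and 6.78 in Ujumqin. As with the other MYH1 probe, the breeds overlapped at 70 d and not at 85 d. Its values at 100 d were 9.95, 11.62, 9.77 and 11.10 in Texel and 9.85, 9.87 and 10.004 in Ujumqin, and at 120 d they were 13.74, 14.86 and 14.53 in Texel and 14.13, 13.19 and 13.76 in Ujumqin. The breeds overlapped at both ages. Fetuses of 135 d read 15.58, 15.54 and 15.11 in Texel and 14.74, 14.95 and 15.01 in Ujumqin for A_70_P018506. Here every Texel fetus was above every Ujumqin fetus, unlike on the other MYH1 probe. The lambs read 15.91, 15.77 and 15.53 at birth, 16.15, 15.54 and 15.54 at 1 month and 15.97, 15.07 and 15.97 at 2 months, and the 3 lamb groups overlapped.

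On A_70_P050846 the groups rose in mean in the order U70, T70, U85, T85, U100, T100, U120, T120, U135, 2 months, T135, birth and 1 month. Neighbours overlapped in 9 of 12 pairs, and the pairs that did not were U85 with T85, T85 with U100 and T100 with U120. On A_70_P018506 the order was U70, T70, U85, T85, U100, T100, U120, T120, U135, T135, 2 months, birth and 1 month. Neighbours overlapped in 8 of 12 pairs there, and U135 with T135 was the pair that did not overlap in addition to the same 3. From 70 to 135 d the difference on A_70_P050846 was 6.90 in Texel and 7.70 in Ujumqin (SE 0.39 each). On A_70_P018506 it was 9.09 in Texel and 9.48 in Ujumqin (SE 0.45 each). This probe read as low as 5.12 at 70 d and depended on the background correction, since normexp gave 7.46 and 7.14 (SE 0.34 each), with the Texel difference the larger one. Sex as a covariate also turned that order, at 9.25 and 9.17. The step from 70 to 85 d held 36.3% of the Texel difference on A_70_P050846 and 12.5% of the Ujumqin difference. On A_70_P018506 that step held 25.4% in Texel and 11.3% in Ujumqin, and the step from 100 to 120 d held the largest share in both breeds, 41.4% and 39.9%. The step from 100 to 120 d is the longest in days. Per 10 d it was the steepest in Texel, at 1.88 log2 units. In Ujumqin the step from 85 to 100 d was steeper per 10 d, at 2.28 beside 1.89.

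CASQ1 encodes calsequestrin 1, a calcium-binding protein of the sarcoplasmic reticulum of skeletal muscle. CASQ1 at 70 d read 11.12, 11.51 and 11.17 in Texel and 10.42, 9.76 and 10.27 in Ujumqin. Its 85 d levels were 12.56, 12.40 and 12.22 in Texel and 11.29, 11.22 and 11.03 in Ujumqin. All Texel fetuses were above all Ujumqin fetuses at both ages. CASQ1 at 100 d was 12.07, 12.83, 12.49 and 12.18 in Texel and 11.75, 12.48 and 12.09 in Ujumqin, with overlap. At 120 d the CASQ1 probe read 13.32, 13.07 and 13.07 in Texel and 13.54, 13.51 and 13.25 in Ujumqin, and at 135 d it read 13.41, 13.90 and 13.32 in Texel and 13.92, 14.27 and 13.82 in Ujumqin. The breeds overlapped at both ages, with the Ujumqin mean the higher one. CASQ1 in lambs was 15.51, 15.82 and 15.50 at birth, 14.80, 14.88 and 14.53 at 1 month and 14.49, 14.17 and 14.32 at 2 months. The birth group stood above every other array, and the 3 lamb groups did not overlap one another.

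The CASQ1 order was U70, U85, T70, U100, T85, T100, T120, U120, T135, U135, 2 months, 1 month and birth. Of its 12 neighbour pairs 7 overlapped, and those without overlap were U70 with U85, T70 with U100, T100 with T120, 2 months with 1 month and 1 month with birth. The difference between 70 and 135 d was 2.28 (SE 0.20) in Texel and 3.86 (SE 0.20) in Ujumqin. Texel CASQ1 paused between 85 and 100 d, where the means differed by less than 0.01, whereas the Ujumqin means differed by 0.93 (SE 0.20) over those days.

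TMOD4 encodes tropomodulin 4, which caps the pointed ends of thin filaments in skeletal muscle. TMOD4 at 70 d read 10.75, 10.90 and 11.13 in Texel and 9.48, 9.20 and 9.63 in Ujumqin. At 85 d the TMOD4 levels were 12.88, 12.57 and 12.81 in Texel and 10.71, 10.66 and 11.45 in Ujumqin. At 100 d TMOD4 read 13.34, 13.93, 13.41 and 13.41 in Texel and 12.75, 12.92 and 13.04 in Ujumqin. All Texel fetuses were above all Ujumqin fetuses of their age up to 100 d. TMOD4 levels of 14.36, 14.26 and 14.79 in Texel and 14.39, 14.26 and 14.18 in Ujumqin followed at 120 d. Fetuses of 135 d read 14.58, 15.18 and 14.08 in Texel and 14.74, 14.97 and 15.08 in Ujumqin. The breeds overlapped at both of these ages. TMOD4 in lambs was 16.37, 16.06 and 15.95 at birth, 16.19, 16.24 and 15.91 at 1 month and 15.83, 15.53 and 16.33 at 2 months, and all 9 lambs were above all 31 fetuses.

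The TMOD4 groups ran U70, T70, U85, T85, U100, T100, U120, T120, T135, U135, 2 months, 1 month and birth. Of 12 neighbour pairs 7 overlapped, and those without overlap were U70 with T70, U85 with T85, U100 with T100, T100 with U120 and U135 with 2 months. Between 70 and 135 d the mean differed by 3.68 (SE 0.23) in Texel and by 5.49 (SE 0.23) in Ujumqin. The first step, from 70 to 85 d, held 49.6% of the Texel and 27.4% of the Ujumqin difference.

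The differences between 70 and 135 d were also given with the slide as a block, which removes differences between slides through the groups that link them. So fitted, they were 5.17 (SE 0.77) in Texel and 7.45 (SE 0.72) in Ujumqin for ACTN3. For MYH1 they were 7.26 (SE 1.02) and 7.30 (SE 0.95) on A_70_P050846 and 8.81 (SE 1.18) and 8.35 (SE 1.10) on A_70_P018506. CASQ1 gave 1.83 (SE 0.55) and 3.08 (SE 0.51), and TMOD4 gave 3.13 (SE 0.66) and 5.01 (SE 0.62). The direction was the same with and without the block, the errors were larger, and on A_70_P018506 the Texel difference became the larger one. Arrays of a single slide show several of the steps directly, but not the Ujumqin steps from 85 to 100 d, the steepest for ACTN3, and from 120 to 135 d, whose groups shared no slide. On slide 1, the 2 T85 arrays were above the 3 T70 arrays by 2.90 for ACTN3, by 2.81 and 2.62 on the MYH1 probes, by 1.21 for CASQ1 and by 1.80 for TMOD4. On slide 2, the 3 U85 arrays were above the 3 U70 arrays by 1.30 for ACTN3, by 0.96 and 1.07 on the MYH1 probes, by 1.03 for CASQ1 and by 1.51 for TMOD4. The pairs of groups did not overlap within either slide for any of the 5 probes. On slide 4, the 3 U120 arrays exceeded the 2 U100 arrays by 2.13 for ACTN3, by 2.80 and 3.76 on the MYH1 probes, by 1.15 for CASQ1 and by 1.30 for TMOD4, again without overlap. On slide 3, the single T120 array exceeded the 3 T100 arrays by 1.61 for ACTN3, by 2.14 and 2.91 on the MYH1 probes, by 0.81 for CASQ1 and by 0.78 for TMOD4, and it was above each of them. A single pair on slide 2 compared T100 with T85, where CASQ1 was lower at 100 d (-0.14) and the other 4 probes were higher by 0.53 to 1.95. On slide 4, the single T135 array was above the mean of 2 T120 arrays by 0.06 to 0.89 over the 5 probes, and it overlapped them for ACTN3 and TMOD4. The members were chosen for their increase over gestation, so the lack of overlap within slides is a description. How many of all probes lacked overlap in the same way was not counted.

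At 70 and 85 d, the stages that chose the members, Texel minus Ujumqin is a description. ACTN3 differed by 1.18 at 70 d and by 2.95 at 85 d (SE 0.29 each), which at 85 d is a 7.74-fold higher signal in Texel. The MYH1 difference was 0.93 at 70 d and 2.47 at 85 d (SE 0.39 each) on A_70_P050846, and 0.90 and 2.13 (SE 0.45 each) on A_70_P018506, where normexp gave 0.32 and 1.18. CASQ1 differed by 1.12 and 1.21 (SE 0.20 each), and TMOD4 by 1.49 and 1.81 (SE 0.23 each). The gap for ACTN3 and both MYH1 probes was thus wider at 85 d than at 70 d, while for CASQ1 and TMOD4 it was nearly as wide at 70 d. For MYH1 the width at 70 d rested on single fetuses, since A_70_P050846 gave 0.35 without T70 replicate 3 and 1.52 without T70 replicate 2, and A_70_P018506 gave 0.22 and 1.496. On slide 2, the single T85 array was above the 3 U85 arrays by 3.29 for ACTN3, by 1.86 and 1.51 on the MYH1 probes, by 1.04 for CASQ1 and by 1.87 for TMOD4. T85 alone links slide 1 to the other slides, so the slide block had to give the 85 d differences these same sizes. Their SE were 0.40, 0.53, 0.62, 0.29 and 0.35 in that order. The blocked differences at 70 d were 1.69 (SE 0.51) for ACTN3, 0.01 (SE 0.68) and -0.04 (SE 0.79) on the MYH1 probes, 0.86 (SE 0.36) for CASQ1 and 1.58 (SE 0.44) for TMOD4. The blocked MYH1 values at 70 d lay near 0 with errors too wide to set them apart from the unblocked ones, and since T70 and U70 shared no slide, breed and slide are linked there only through the other groups. The paper's quantitative PCR did not give the same picture. There CASQ1 was lower in Texel at both ages, and MYH1 was lower at 70 d and only slightly higher at 85 d. TMOD4 was higher in Texel at both ages, by far more than on the array. ACTN3 was not measured in that way.

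Another way to describe the lead of Texel is the Ujumqin age with the same level, read from straight lines between the Ujumqin group means. The mean T70 levels, with the range of single fetuses in brackets, matched Ujumqin ages of 83.7 d (77.7 to 86.1 d) for ACTN3, 84.4 d (85.0 to 89.7 d) and 82.6 d (80.5 to 90.1 d) on the MYH1 probes, 86.4 d (84.1 to 90.4 d) for CASQ1 and 84.8 d (83.1 to 86.5 d) for TMOD4. On each MYH1 probe 2 of 3 fetuses could be placed, so its range leaves out 1 fetus that the mean holds. The mean T85 level of ACTN3 matched a Ujumqin age of 97.8 d, and the 3 fetuses taken singly lay from 96.2 to 99.3 d. For MYH1 the matching age was 95.2 d (92.7 to 98.4 d) on A_70_P050846 and 94.4 d (91.6 to 96.6 d) on A_70_P018506. CASQ1 at T85 matched 104 d (102 to 107 d), and TMOD4 matched 98.9 d (97.5 to 99.8 d). Every T85 fetus thus matched a later Ujumqin age on each of the 5 probes. The mean T100 levels matched Ujumqin ages of 108 d (106 to 111 d) for ACTN3, 105 d (99.6 to 111 d) and 104 d (99.4 to 109 d) on the MYH1 probes, 104 d (99.4 to 111 d) for CASQ1 and 109 d (106 to 115 d) for TMOD4. By the means the lead in days was shorter at 100 d than at 70 and 85 d, the stages that chose the members. From 70 to 85 d the lead in days by the means grew for CASQ1 alone, although the gap in level of ACTN3 and MYH1 was wider at 85 d. For MYH1 the lead at 70 d rested on single fetuses, so its order against the leads at 85 and 100 d is uncertain. Its gap in level at 70 d was 0.35 and 0.22 on the 2 probes without T70 replicate 3. With the slide as a block that gap was 0.01 and -0.04. Between 85 and 100 d the leads of single fetuses overlapped for MYH1 and TMOD4.

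The breed differences at 100, 120 and 135 d did not choose the members, although the levels of these stages are part of the increase over gestation that did. The breeds were compared there by limma on the arrays of the stage, and p was adjusted across the 14480 probes tested. At 100 d, Texel was above Ujumqin on average on 5 of 5 probes, by 1.03 (SE 0.31, adjusted p = 0.277) for ACTN3, by 0.64 (SE 0.42, adjusted p = 0.534) and 0.70 (SE 0.45, adjusted p = 0.515) on the MYH1 probes, by 0.29 (SE 0.24, adjusted p = 0.615) for CASQ1 and by 0.62 (SE 0.17, adjusted p = 0.254) for TMOD4. With 1 array left out these ranged from 0.69 (without U100 replicate 1) to 1.36 (without U100 replicate 2) for ACTN3, from 0.37 to 0.89 and from 0.37 to 0.98 on the MYH1 probes (lowest without T100 replicate 2), from 0.11 to 0.47 for CASQ1 and from 0.48 to 0.69 for TMOD4. By limma 0 of 5 members were called, that is, past an adjusted p of 0.05 with a change of 2-fold or more, beside 0.0138% of all tested probes. At an unadjusted p under 0.05, 2 of 5 passed (ACTN3 and TMOD4), beside 13.3% of all tested probes, and with 2-fold in addition 1 of 5 did, beside 204 of 14480 probes. The methods' t-test called 0 of 5 at an unadjusted p under 0.05 with 2-fold, beside 106 of 14480 probes, a count that the methods' further limit on the FDR cannot raise, and 0 of 5 after adjustment, beside 0 of all probes. On slide 3, the 3 T100 arrays were above the single U100 array by 1.79 for ACTN3, 0.75 and 0.98 on the MYH1 probes, 0.75 for CASQ1 and 0.84 for TMOD4, and they overlapped it on both MYH1 probes. With the slide as a block the differences were 1.32 (SE 0.35) for ACTN3, 0.79 (SE 0.46) and 1.27 (SE 0.53) on the MYH1 probes, 0.49 (SE 0.25) for CASQ1 and 0.81 (SE 0.30) for TMOD4, with adjusted p from 0.216 to 0.861.

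At 120 d the breed difference was -0.02 (SE 0.27) for ACTN3, 0.25 (SE 0.21) and 0.69 (SE 0.37) on the MYH1 probes, -0.28 (SE 0.18) for CASQ1 and 0.19 (SE 0.20) for TMOD4, with adjusted p from 0.541 to 0.984. The breeds overlapped on each of the 5 probes, and with 1 array left out A_70_P018506 ranged from 0.43 to 1.00 and TMOD4 from 0.03 to 0.30. By limma 0 of 5 members were called, beside 0.0345% of all tested probes, 0 of 5 passed an unadjusted p under 0.05, beside 10.6%, and the methods' t-test called 0 of 5 at an unadjusted p under 0.05 with 2-fold, beside 168 of 14480 probes, and 0 after adjustment, beside 0 of all probes. On slide 4, 2 T120 arrays differed from 3 U120 arrays by -0.15 for ACTN3, 0.22 and 1.00 on the MYH1 probes, -0.36 for CASQ1 and 0.25 for TMOD4, without overlap for A_70_P018506 and CASQ1. The slide-blocked differences were 0.09 (SE 0.30) for ACTN3, 0.20 (SE 0.40) and 0.86 (SE 0.46) on the MYH1 probes, -0.23 (SE 0.21) for CASQ1 and 0.26 (SE 0.26) for TMOD4. The sign for ACTN3 at 120 d was not stable, and it was also above 0 with sex as a covariate (0.16) and with scaling to the 75th percentile (0.23). With sex as a covariate the other differences were 0.53 (SE 0.43) and 1.15 (SE 0.47, adjusted p = 0.189) on the MYH1 probes, -0.14 (SE 0.22) for CASQ1 and 0.51 (SE 0.23, adjusted p = 0.242) for TMOD4, so that A_70_P018506 was past 2-fold and not called.

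At 135 d the difference was -0.45 (SE 0.22, adjusted p = 0.85) for ACTN3, where all 3 Ujumqin fetuses were above all 3 Texel fetuses. On the MYH1 probes it was 0.12 (SE 0.19, adjusted p = 0.943) with overlap and 0.51 (SE 0.20, adjusted p = 0.802) with all Texel fetuses above. Over the alternatives these 2 values ranged from -0.03 to 0.31 and from 0.42 to 0.82. CASQ1 had -0.46 (SE 0.23, adjusted p = 0.847) and TMOD4 had -0.32 (SE 0.30, adjusted p = 0.904), both with overlap. With 1 array left out, ACTN3 ranged from -0.59 to -0.24, CASQ1 from -0.64 to -0.33 and TMOD4 from -0.60 to -0.05. By limma 0 of 5 members were called, beside 0.0207% of all tested probes, and 1 of 5 passed an unadjusted p under 0.05, namely A_70_P018506 of MYH1, beside 6.06%. The methods' t-test called 0 of 5 before adjustment, beside 106 of 14480 probes with 2-fold, and 0 of 5 after it, beside 0 of all probes. On slide 5, 2 T135 arrays differed from 3 U135 arrays by -0.59 for ACTN3, -0.03 and 0.42 on the MYH1 probes, -0.39 for CASQ1 and -0.30 for TMOD4. T135 alone links slide 5 to the other slides, so with the slide as a block the values had to be these same ones. Their SE were 0.32, 0.42, 0.49, 0.23 and 0.27 in that order, with adjusted p from 0.57 to 0.999. The 2 MYH1 probes thus disagreed in overlap at 135 d. A_70_P050846 changed sign with the block, which here sets aside the T135 array of slide 4.

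Whether the breed difference changed between 100, 120 and 135 d was tested directly by limma's F test over these stages. Of the members, 0 of 5 passed an adjusted p of 0.05, beside 0.00691% of all tested probes. ACTN3 had an adjusted p of 0.354, CASQ1 0.601, TMOD4 0.574 and the MYH1 probes 0.947 and 0.996. At an unadjusted p under 0.05, 3 of 5 members passed (ACTN3, CASQ1 and TMOD4), beside 7.44% of all tested probes. Those 3 are the probes on which the Texel mean was above the Ujumqin mean at 100 d and below it at 135 d, and on both MYH1 probes the Texel mean was the higher one at both ages.

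The values of the lambs played no part in the choice of members, and successive stages were tested by limma in 1 fit over the 13 groups. U135, against which the newborn lambs are set, is the end of the increase over gestation that chose the members, so that comparison is not fully independent of the choice. From 135 d to birth, CASQ1 rose by 1.60 (SE 0.20, adjusted p = 4.82e-07), a 3.04-fold higher signal, and TMOD4 rose by 1.20 (SE 0.23, adjusted p = 0.00015), a 2.30-fold higher signal. All 3 newborn lambs were above all 3 U135 fetuses on both probes. ACTN3 was higher by 0.89 (SE 0.29, adjusted p = 0.0125), under 2-fold, with all 3 lambs above all 3 fetuses. The MYH1 probes differed by 0.17 (SE 0.39, adjusted p = 0.749) and 0.84 (SE 0.45, adjusted p = 0.132), and on the second, A_70_P018506, the groups did not overlap. Called were thus 2 of 5 members, both higher, beside 10.4% of all tested probes called higher and 19.7% called in either direction. A share of nearly 1 probe in 5 changing means that a call at this step is common on the array.

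The birth and 135 d groups lay on different slides. With the slide as a block, CASQ1 differed by 2.12 (SE 0.59, adjusted p = 0.0672), TMOD4 by 1.77 (SE 0.72, adjusted p = 0.205), ACTN3 by 1.58 (SE 0.84, adjusted p = 0.356) and the MYH1 probes by -0.35 (SE 1.10, adjusted p = 0.916) and 1.04 (SE 1.28, adjusted p = 0.741). The block left 0 of 5 members called, and the count over all tested probes went from 2851 to 194. The block raised the differences of CASQ1 and TMOD4 and widened their errors. It links the birth and 135 d groups only through arrays of other groups, so the blocked values rest on those arrays. As a random block, the slide left both called, CASQ1 at 1.60 (adjusted p = 1.46e-06) and TMOD4 at 1.20 (adjusted p = 0.000326), with 2781 of all tested probes. Scaling each array to its 75th percentile put the median of all probes at 0.20 for this step, beside -0.0125 under the quantile method, and called 4 of 5 members, with ACTN3 at 1.20 and A_70_P018506 at 1.21 in addition, beside 3277 of 14480 probes, 2348 of them higher. Under that scaling 71.7% of all calls were higher, beside 52.6% under the quantile method.

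From birth to 1 month, CASQ1 was lower, with a difference of -0.87 (SE 0.20, adjusted p = 0.00315), which is under 2-fold, and all 3 lambs of 1 month were below all 3 newborn lambs. The other differences were -0.20 (SE 0.29) for ACTN3, 0.10 (SE 0.39) and 0.01 (SE 0.45) on the MYH1 probes and -0.01 (SE 0.23) for TMOD4, with adjusted p from 0.665 to 0.993. By limma 0 of 5 members were called, beside 7.98% of all tested probes, and 1 of 5, CASQ1, passed an unadjusted p under 0.05, beside 34.2%. With the slide as a block, CASQ1 differed by -1.04 (SE 0.46, adjusted p = 0.713), ACTN3 by -0.98 (SE 0.65), TMOD4 by -0.34 (SE 0.56) and the MYH1 probes by 0.02 (SE 0.86) and 0.06 (SE 1.00). From 1 to 2 months all 5 differences were below 0, at -0.27 (SE 0.29) for ACTN3, -0.19 (SE 0.39) and -0.07 (SE 0.45) on the MYH1 probes, -0.41 (SE 0.20) for CASQ1 and -0.22 (SE 0.23) for TMOD4, with adjusted p from 0.216 to 0.949. With 1 array left out, ACTN3 ranged from -0.36 to -0.12 and TMOD4 from -0.435 to -0.037. By limma 0 of 5 members were called at this step beside 3.24% of all tested probes, and 0 of 5 passed an unadjusted p under 0.05, beside 23.5%. The slide-blocked values from 1 to 2 months were -0.18 (SE 0.60) for ACTN3, 0.41 (SE 0.79) and -0.33 (SE 0.91) on the MYH1 probes, -0.76 (SE 0.42) for CASQ1 and -0.46 (SE 0.51) for TMOD4. No slide held any 2 of these successive groups, so no value within a slide exists for them.

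A comparison that stays within a slide was chosen after seeing the data. U135 and the lambs of 2 months were both measured on slide 5, and U135 again took part in the choice of members. Between them TMOD4 was higher at 2 months by 0.97 (SE 0.23, adjusted p = 0.00183), just under 2-fold, with all 3 lambs above all 3 fetuses. ACTN3 was higher by 0.43 (SE 0.29, adjusted p = 0.268) and A_70_P018506 of MYH1 by 0.77 (SE 0.45, adjusted p = 0.193), neither with overlap. CASQ1 differed by 0.32 (SE 0.20, adjusted p = 0.237) and A_70_P050846 of MYH1 by 0.09 (SE 0.39, adjusted p = 0.899), both with overlap. By limma 0 of 5 members were called, beside 14.7% of all tested probes in either direction and 6.59% called higher, and 1 of 5, TMOD4, passed an unadjusted p under 0.05, beside 42.3%. The blocked differences equalled the unblocked ones, as they must with both groups wholly on slide 5. Their SE were 0.29, 0.38, 0.44, 0.20 and 0.24, with an adjusted p of 0.00331 for TMOD4. This comparison shares its 3 U135 arrays with that of 135 d and birth, so the 2 are not independent. TMOD4 was past 2-fold here under the normexp background correction (1.05), under scaling to the 75th percentile (1.31) and when certain single arrays were left out (up to 1.15).

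Within a group, the 5 probes seldom picked out the same animal. Of 13 groups, 1 (T100) had the same fetus highest on all 5 probes, its replicate 2, and 1 (T135) had the same fetus lowest on all 5, its replicate 3. T70 was the most spread group on both MYH1 probes, with an SD of 1.18 on A_70_P050846 and 1.28 on A_70_P018506, and its replicate 3 was highest and its replicate 2 lowest on both. ACTN3 in the same group was lowest in replicate 3, so the 2 genes ranked those fetuses differently. The SD of U135, by contrast, was 0.05 for ACTN3 and 0.06 on A_70_P050846.

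Over the 13 group means, the members followed one another with a Pearson r from 0.916, between A_70_P050846 and CASQ1, to 0.991, between ACTN3 and A_70_P050846. These correlations describe group means that share the same animals and the same rise with age, and all 5 probes were chosen for that rise. Among 1667 tested probes with exactly 1 gene symbol, those most like ACTN3 were A_70_P050846 of MYH1 (0.991), FBP2 (0.989), ENO3 (0.988), TMOD4 (0.986) and A_70_P018506 of MYH1 (0.976). The closest to A_70_P050846 were ACTN3 (0.991), A_70_P018506 (0.988), SIGIRR (0.983), glut4 (0.979) and ENO3 (0.978). A_70_P018506 was most like ESR1 (0.991), A_70_P050846 (0.988), COX7A1 (0.988), HACD1 (0.987) and a probe named OVAR (0.983). CASQ1 was most like 2 probes of ENO3 (0.981 and 0.979), EEF1A2 (0.977), TMOD4 (0.974) and ALDOA (0.974), and TMOD4 was most like FBP2 (0.995), 2 probes of ENO3 (0.990 and 0.986), ACTN3 (0.986) and TPM1 (0.981). ENO3 encodes the muscle enolase, FBP2 the muscle fructose bisphosphatase, ALDOA an aldolase, EEF1A2 the muscle and nerve form of an elongation factor, glut4 the insulin-dependent glucose transporter and COX7A1 a subunit of cytochrome c oxidase in heart and skeletal muscle.

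Other genes of the members' families and pathways were read from lists. Of the members' own families, myosin heavy chains, alpha-actinins, calsequestrins, tropomodulins and leiomodins, 0 further probes were named on the array. The fast contractile list had 4 probes besides the members, 2 of TNNC2, 1 of MYLPF and 1 of TPM1. TNNC2 is the calcium-binding troponin of fast fibres and MYLPF a fast myosin light chain, and 0 of these 3 probes were called from 70 to 135 d. Their group means lay between 18.45 and 18.99 at the top of the normalized scale, where quantile normalization leaves little room for a difference, so nothing can be read from that count. TPM1, a tropomyosin of the thin filament, rose by 1.05 (SE 0.15, adjusted p = 8.64e-07) in Texel and by 1.16 (SE 0.15, adjusted p = 1.75e-07) in Ujumqin, just past 2-fold. It was not called in Texel with normexp (0.94), with the slide as a block (1.48, adjusted p = 0.0534), without T135 replicate 1 (0.92) or without T70 replicate 3 (0.97), or in Ujumqin without U70 replicate 2 (0.93). The thin filament list held TPM2 besides TMOD4. TPM2 rose by 2.63 (SE 0.58, adjusted p = 0.000445) in Texel, and with the slide as a block it differed by 2.41 (SE 1.59, adjusted p = 0.535) and was not called. In Ujumqin TPM2 differed by 1.43 (SE 0.58, adjusted p = 0.0481), a call lost whichever array was left out and under 6 alternatives, normexp, the 75th percentile, a floor of 16, the fetal arrays alone and both slide blocks. In these fits the difference stayed past 2-fold, from 1.12 with normexp to 2.67 (SE 1.48) with the slide as a block. The adjusted p ran from 0.0522 to 0.365. The calcium list held CASQ1 and 0 other genes on the array, and the slow contractile list held 0 genes on the array. MYL6B, a light chain on the list of developmental isoforms and its only probe, rose in Texel by 2.09 (SE 0.26, adjusted p = 1.42e-07), beside 10.8% of all tested probes, a call lost with the slide as a block. The Ujumqin difference was 0.78 and was called only with scaling to the 75th percentile, beside 10.4% of all tested probes called higher under the quantile method. Whether the breeds differed in this was not tested.

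The glycolytic and phosphagen list, enzymes that supply fast fibres with energy together with the elongation factor EEF1A2, had 17 probes of 9 genes. From 70 to 135 d 16 of 17 rose in each breed, beside 10.8% of all tested probes in Texel and 10.4% in Ujumqin, and the median change was 2.47 in Texel and 3.02 in Ujumqin, beside -0.05 and -0.04 over all probes. FBP2 was called higher in both breeds, from group means of 5.46 in T70 and 3.58 in U70 to 13.92 in T135 and 13.83 in U135, and since it was well above background on 38 of 40 arrays and dim at 70 d, the size of its rise was uncertain. PYGM, the muscle glycogen phosphorylase, rose by 2.47 (SE 0.24) and 3.53 (SE 0.24). From 135 d to birth 7 of 17 were higher, beside 10.4% of all tested probes, among them PFKM, the muscle phosphofructokinase, at 1.63 and 1.73 on its 2 probes. The breeds differed on 1 of these 17 probes at 70 d and on 1 at 85 d, beside 0.117% and 0.0207% of all tested probes, which are 17 and 3 probes, and from 2 to 5 and from 1 to 3 probes with 1 array left out. Both times it was A_70_P046666 of EEF1A2, at 3.13 and 3.98, and none of the enzymes was called. The study lists this probe as differing between the breeds at both ages on these arrays, so its calls are a description. The counts at 70 and 85 d depended on the fit. They were 6 and 9 in the 13-group fit, beside 58 and 33 of all tested probes. With the replicate block they were 6 and 10, beside 61 and 34. By the methods' t-test they were 0 and 0, beside 0 and 0. At 70 d the count was 0 with any 1 array left out other than T70 replicate 3, and at 85 d it was 0 without T85 replicate 3 or any single U85 array. Under the slide block, 5 of the 17 in Texel, 13 in Ujumqin and 2 at birth were called, and the count over all tested probes went from 3226 to 252 in Texel and from 3068 to 538 in Ujumqin. Scaling to the 75th percentile put the median of all probes at -0.15 for the Texel difference between 70 and 135 d, where 38.1% of calls were higher, beside 48.5% under the quantile method.

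Regulators and markers of other cells also moved over the same ages, and their part in the members' values was not tested. Of 8 probes of myogenic regulators, 2 were lower at 135 d than at 70 d in each breed, beside 11.5% of all tested probes in Texel and 10.8% in Ujumqin, both of MYF5, an early regulator of muscle precursors, at -1.73 and -2.09 in Texel and -2.54 and -2.33 in Ujumqin. The count was 4 without T70 replicate 2 in Texel and 4 without U135 replicate 3 in Ujumqin. The MYOG probes disagreed, since A_70_P026226 rose by 1.55 (SE 0.27) from 135 d to birth while A_70_P026227 was not called. Of 10 probes of connective tissue markers, 7 fell from 70 to 135 d in Texel and 5 in Ujumqin, beside the same 11.5% and 10.8%, and 4 fell from 135 d to birth (2 with normexp), beside 9.34% of all tested probes. The gestational count was 3 without T70 replicate 2 and 4 without T135 replicate 2 in Texel, and 8 without U70 replicate 1 and 3 without U70 replicate 2 in Ujumqin. Their summed level was 18.69 in T70, 18.28 in T85, 18.25 in T100, 17.80 in T120 and 17.64 in T135. In Ujumqin it was 18.61 in U70, 18.02 in U85, 18.38 in U100, 17.83 in U120, 17.36 in U135, 16.58 at birth, 16.90 at 1 month and 16.93 at 2 months, and DCN was the brightest gene. The sum was therefore lowest in the birth group, where CASQ1 and TMOD4 were highest, and at 85 d it was higher in Texel. It did not show the larger changes of TNMD, a dimmer gene of the list. TNMD on A_70_P024331 read 15.58 in T70, 12.89 in T85, 11.73 in T100, 8.80 in T120 and 11.48 in T135. In Ujumqin the same probe read 15.64 in U70, 11.15 in U85, 13.69 in U100, 11.04 in U120 and 6.96 in U135. The fall was thus not steady in either breed. The Texel mean was the higher one at 85 and 135 d and the lower one at 100 and 120 d. Of 8 adipocyte probes, 4 rose and 1 fell over gestation in each breed, beside 10.8% of all tested probes higher in Texel and 10.4% in Ujumqin, and 3 were called higher from 135 d to birth, beside 10.4%. Normexp called 0 at birth and 2 instead of 5 over gestation in Texel, where 3 were called without T70 replicate 2 or without T70 replicate 3. The list had a summed level from 12.09 at T70 to 13.40 at T135, from 11.91 at U70 to 13.49 at U135 and of 13.52 at birth, and PPARG was the brightest gene. Of 13 leukocyte probes, 0 were called over gestation in either breed (1 in Texel without T135 replicate 1), beside 22.3% of all tested probes in Texel and 21.2% in Ujumqin, and 3 were called higher from 135 d to birth, beside 10.4% of all tested probes, 2 of CD4 and 1 of ITGAM. The CD4 probes were well above background on 4 and 5 of 40 arrays, and the count was 0 with normexp, 1 with a floor of 16 or with the stricter filter and 5 with scaling to the 75th percentile, so little can be read from it. The leukocyte list had a summed level of 11.05 at U135, 11.11 at birth and 12.66 at 2 months and ITGB2 as the brightest gene. Of 2 probes of the erythroid gene HBB, 1 rose over gestation in each breed, beside 10.8% of all tested probes in Texel and 10.4% in Ujumqin, and 0 were called from 135 d to birth, beside 19.7%, and their summed level was 17.68 at U135, 16.30 at birth, 14.55 at 1 month and 11.95 at 2 months. The newborn lambs ran from 13.95 to 17.52 (SD 2.03), and 1 low lamb pulled their mean down. KDR (endothelial, 4 probes) and STMN2 (nerve, 1 probe) had 0 calls over gestation and at birth under the quantile method with all arrays kept. All tested probes had 22.3%, 21.2% and 19.7%. At birth up to 2 were called for KDR and 1 for STMN2 with 1 array left out, and scaling to the 75th percentile called STMN2. Summed levels were 10.39 and 6.98 at U135 and 9.75 and 9.14 at birth. Texel minus Ujumqin for STMN2 was below 0 at every fetal age, from -0.25 (135 d) to -4.39 (120 d), with -3.03 at 85 d. On the arrays of the stage it was not called. STMN2 was called at 120 d in the 13-group fit, with the replicate or slide blocks and with sex as a covariate. The study lists this probe as differing between the breeds at 85 and 120 d on these arrays, so those values are a description. The leukocyte sum was 12.44 (SD 1.17) in T120 and 11.15 (SD 0.27) in U120, with overlap. Marker probes that were well above background on no array numbered 0 in each of these lists. Under the slide block, 0 of the connective tissue, adipocyte, leukocyte, erythroid and myogenic probes were called over gestation or at birth.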

How the data were processed

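Longissimus dorsi RNA of 40 animals in 13 groups was measured on 40 1-colour Agilent arrays of 15008 sheep probes. The scanner files hold, per the file headers, intensity values from Agilent Feature Extraction 10.5.1.1, background-subtracted and detrended on each array. The deposited table holds log2 values that the authors quantile normalized over the 40 arrays, and it served as an alternative.

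The processed intensity was read from the scanner files with Python 3.11.15, numpy 2.4.6 and pandas 2.3.3. Spots marked as outliers by Feature Extraction were left out, spots of a probe were averaged, a floor of 1 was set, the 40 arrays were quantile normalized together and the base-2 logarithm was taken. Probes well above background on at least 1 array were tested, 14480 of 15008 (14479 in 2 comparisons). Medians of the processed signal lay between 217.6 and 708.3, and from 79.3 to 90.9% of spots were well above background. Groups came from the labels.

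The breeds at 100, 120 and 135 d were compared by limma 3.58.1 (R 4.3.3) on the arrays of the stage. Stages after 135 d and the change of the breed difference were tested in 1 limma fit with a mean for each of the 13 groups. P-values were adjusted by Benjamini and Hochberg over all tested probes, and called probes had an adjusted p under 0.05 together with at least a 2-fold change. Values at 70 and 85 d and the increase over gestation have standard errors from the 13-group fit and no test. The methods' t-test with unequal variances was run for the breeds. The steps were tested on simulated data. The 5 members and the gene lists were chosen with earlier results of these data known.

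Named were the members, any other probe of their gene families, examples from the lists, the brightest gene of some lists, and the 5 probes with exactly 1 gene symbol most like each member. The examples were not always the genes with the largest change among those called. A summed level is the log2 of the summed signal of a list's probes. In the list of myogenic regulators, 1 gene is not reported here. Gene symbols came from the array's names, from reference accessions and, for 303 probes with the members among them, from the study's homology search. Those 303 names were read from the study's lists of probes differing between the breeds on these arrays. Breed differences of list genes named only in this way are therefore not independent of the choice. No symbol was found for 13161 probes.

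Besides leaving out arrays, 15 alternatives were tried, among them scaling to the 75th percentile, a normexp background with offset 50, a floor of 16, other filters, the slide as a block or random block, sex as a covariate and the replicate number as a block. The comparison of 135 d with 2 months and the values within slides were chosen after seeing the data. Replicate numbers do not pair samples. Proteins and promoters of the members were not analysed here, since no genome or protein sequences were used here.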

Additional observations from a re-analysis of the deposited data

Results flagged for a closer look

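In the T100 group, the only one with 4 animals, TMOD4 had 1 fetus far from the others. Replicate 2 read 13.93, and the others read 13.34, 13.41 and 13.41, so that its gap to the nearest fetus was 0.887 of the range of the group, above Dixon's 95% critical value for 4 samples. The same fetus was the highest of its group on all 5 probes, and the other 4 probes had ratios of 0.369, 0.103, 0.282 and 0.449. Chance flags about 1 in 20 groups, and 5 probes were looked at. The cause was not tested.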

How the results depend on the processing

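At 100, 120 and 135 d, 0 of 5 members were called by limma between the breeds under each alternative, leaving out arrays included. From 135 d to birth the count of 2 members called became 4 with scaling to the 75th percentile, 3 with no fold threshold and 0 with the slide as a block. Normexp called A_70_P018506 of MYH1 (1.04) in addition. The count was 2 whichever array was left out. From birth to 1 month the count of 0 became 1 with scaling to the 75th percentile and 1 with no fold threshold, in both cases CASQ1.

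The sign of ACTN3 between breeds at 120 d reversed with scaling to the 75th percentile (0.23), sex as a covariate (0.16) and the slide as a block (0.086), and ranged from -0.16 to 0.25 with 1 array left out. It was above 0 without T120 replicate 3 (0.25) and without U120 replicate 3 (0.05). On A_70_P050846 of MYH1 the slide as a block reversed 1 to 2 months (0.41), 135 d to birth (-0.35) and the breeds at 135 d (-0.029), normexp reversed 135 d to 2 months (-0.022), and scaling to the 75th percentile reversed birth to 1 month (-0.068). With 1 array left out, this probe ranged from -0.029 to 0.23 between breeds at 135 d. The value of -0.029 came without T135 replicate 1, which is the same comparison as with the block. From birth to 1 month the probe ranged from -0.0097 to 0.17, with -0.0097 without U_birth replicate 2. On A_70_P018506 of MYH1 the slide as a block reversed the breeds at 70 d (-0.036), and scaling to the 75th percentile reversed birth to 1 month (-0.10). With 1 array left out, it ranged from -0.19 to 0.11 from birth to 1 month, below 0 without U_1month replicate 1 (-0.19) and without U_birth replicate 3 (-0.10). From 1 to 2 months it ranged from -0.22 to 0.23, above 0 without U_1month replicate 1 (0.13) and without U_2month replicate 2 (0.23). TMOD4 from birth to 1 month ranged from -0.10 to 0.11, above 0 without U_1month replicate 3 (0.09) and without U_birth replicate 1 (0.11). The cause was not tested.

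TMOD4 from 135 d to 2 months passed 2-fold with scaling to the 75th percentile (1.31), with normexp (1.05), and without U_2month replicate 1 (1.00), U_2month replicate 2 (1.15) or U135 replicate 3 (1.04), in a range from 0.75 to 1.15. A_70_P018506 of MYH1 from 135 d to birth passed the thresholds with scaling to the 75th percentile (1.21) and with normexp (1.04), ACTN3 did with that scaling (1.20), and CASQ1 from birth to 1 month did as well (-1.09). The slide as a block left CASQ1 (2.12) and TMOD4 (1.77) from 135 d to birth past 2-fold with adjusted p of 0.0672 and 0.205. The cause was not tested.

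The replicate block changed no member's call between breeds at 100, 120 and 135 d or after 135 d, and from 135 d to birth it called 2853 of all probes, beside 2851. Correlations between arrays of the same number ran from -0.308 to 0.111, so the numbers do not pair samples.

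Over all probes, the slide as a block called 252 over gestation in Texel (3226 without it), 538 in Ujumqin (3068), 194 at birth (2851), 0 from birth to 1 month (1156) and 63 from 1 to 2 months (469). Normexp called 1739, 1689, 1189, 353 and 194 for these and 1050 from 135 d to 2 months (2122), and no fold threshold called 6217 at birth, 3040 from birth to 1 month and 1097 from 1 to 2 months. Scaling to the 75th percentile called 895 from 1 to 2 months and put the median of all probes at -0.11 there, beside 0.0174, and 11.7% of calls were then higher, beside 34.8%. Between breeds at 100, 120 and 135 d the counts were 2, 5 and 3 on the arrays of the stage, 14, 261 and 7 in the 13-group fit, 8, 304 and 11 with the replicate block, 11, 152 and 5 with sex, 7, 491 and 16 with the slide as a block and 0, 0 and 0 by the methods' t-test after adjustment. Leaving out 1 array gave from 0 to 159, from 2 to 154 and from 0 to 10. At 70 and 85 d they were 17 and 3, between 0 and 61 and between 0 and 34 under the alternatives and from 2 to 5 and from 1 to 3 with 1 array left out, and at 70 d 83.6% of calls were higher in Texel with scaling to the 75th percentile, beside 47.1%. With normexp 33.3% were higher at 120 d, beside 20%, and 50% at 85 d, beside 33.3%. Of the counts in lists, 1972 stayed within 1.5 times and 200 did not. All 5 members were well above background on 40 of 40 arrays. Signal over background still limits A_70_P018506 of MYH1, which normexp moved from 2.13 to 1.18 between breeds at 85 d, from 9.09 to 7.46 over gestation in Texel and from 9.48 to 7.14 in Ujumqin, and the dim probes of the lists.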
